A study of Mus musculus with 6 samples.

Results

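T cells and natural killer (NK) cells were followed through 34 of their genes in cells of chemically induced mouse skin tumours. The genes were taken from a list of receptor, signalling, killing and regulatory genes, and each was represented by the probe set with the highest mean among those annotated to that gene alone. Of the 34 genes, 32 were measured in this way, out of 18193 genes on the array. Klrb1c shares its probe set with Klrb1b, and Lck was not analysed here.

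The comparison rested on 6 Affymetrix arrays, 3 from wild-type (WT) mice and 3 from mice deficient in E-FABP (EKO), the epidermal fatty acid binding protein encoded by Fabp5. Both groups had received the carcinogen DMBA, which starts skin tumours, and TPA, whose repeated use makes them grow out, over 5 months. Single-cell suspensions were made from the tumours by digestion, and the RNA came from a set number of tumour cells. The sources used here give no strain, age or sex and do not describe the Fabp5 mutation. The labels call the cells keratinocytes, yet no sorting step is described. The mean log2 value of the 9 measured keratinocyte markers was 12.15 to 12.43 in every array, so the labelled cell type was present in all 6. Fabp5 itself read 14.82, 14.94 and 14.80 on the log2 scale in the WT arrays and 8.21, 8.30 and 7.98 in the EKO arrays, so all 6 arrays matched their labels (limma, difference -6.69, adjusted p = 1.04e-06).

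T cells recognise antigen through a receptor whose signal passes from the CD3 chains and the zeta chain to the kinases Lck and Zap70 and the adaptor Lat. Cytotoxic T cells and NK cells kill with granzymes and perforin, and regulatory T cells, which depend on Foxp3, restrain them. In mouse skin, gamma-delta T cells live among the keratinocytes and patrol for stressed cells. In a bulk sample, fewer lymphocytes and less RNA per lymphocyte cannot be told apart.

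The promoters of 3 cytotoxic genes are shown because Gzmc and Nkg7 had the smallest p of the cytotoxic genes with lower EKO values, and Gzmb is a neighbour of Gzmc on chromosome 14. Each runs from 250 bases before to 50 bases after the annotated start, from RefSeq on GRCm38.p6. Gzmc lies at chr14:56234608-56234907 on the minus strand, Gzmb at chr14:56262285-56262584 on the minus strand, and Nkg7 at chr7:43436888-43437187 on the plus strand. Capitals mark matches to motifs of factors known in activated lymphocytes, searched on both strands.
Gzmc: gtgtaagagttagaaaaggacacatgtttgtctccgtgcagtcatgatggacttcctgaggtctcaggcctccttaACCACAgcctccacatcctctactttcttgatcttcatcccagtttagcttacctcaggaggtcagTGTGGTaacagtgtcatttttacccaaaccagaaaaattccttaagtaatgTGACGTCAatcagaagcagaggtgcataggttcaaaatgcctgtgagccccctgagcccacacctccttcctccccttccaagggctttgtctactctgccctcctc
Gzmb: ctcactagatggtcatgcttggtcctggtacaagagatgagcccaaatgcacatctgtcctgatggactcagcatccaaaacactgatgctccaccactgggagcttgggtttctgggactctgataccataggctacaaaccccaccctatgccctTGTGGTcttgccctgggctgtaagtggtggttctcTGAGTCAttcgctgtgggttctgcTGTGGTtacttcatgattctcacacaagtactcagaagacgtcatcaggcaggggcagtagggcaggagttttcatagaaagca
Nkg7: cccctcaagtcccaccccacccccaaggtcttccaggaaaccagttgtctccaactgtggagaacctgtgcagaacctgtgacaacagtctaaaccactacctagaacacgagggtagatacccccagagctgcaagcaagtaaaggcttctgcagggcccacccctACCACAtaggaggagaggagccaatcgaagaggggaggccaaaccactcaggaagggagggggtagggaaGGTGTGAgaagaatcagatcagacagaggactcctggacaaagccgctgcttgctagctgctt

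The motifs searched were TGAGTCA for AP-1, TGTGGT for RUNX factors, TCACACC for T-box factors, TGACGTCA for cAMP response elements and TATAAA for the TATA box. None of the marked matches overlap another motif. The Gzmc promoter held 2 RUNX matches, 108 and 174 bases upstream of the start, and 1 cAMP response element 57 bases upstream. That of Gzmb held 2 RUNX matches, at 93 and 34 bases, and an AP-1 match at 58 bases. Nkg7 had a RUNX match at 83 bases and a T-box match at 13 bases. Of the measured genes of the list, 24 had 28 promoters in the table, and 39.3% of these held the RUNX letters, against 16.8% of 32851 promoters of the same length. The letters for AP-1, T-box factors and the cAMP response element were each in 7.14% of the 28, against 5.2%, 3.98% and 1.79% of all promoters. The TATA box letters were in 10.7%, against 13.6%. Such matches describe the sequence and are not sites of binding.

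Robust multi-array average (RMA) values carry no detection calls, so a pair of reference lines was used to judge how near each gene lay to the floor of the array. One was the lower quartile of all probe sets, 3.93 on the log2 scale as a mean of the 6 arrays. The other was the 95th percentile of 77 probe sets for olfactory and vomeronasal receptors, which belong to sensory neurons, at 5.34. By its mean over the 6 arrays, 6 of the 32 genes lay below the lower quartile, 13 between both lines and 13 above the olfactory line. Of all 18193 genes, 15.48% had means below the lower quartile and 66.58% above the olfactory line. The lowest were Cd8b1, Ncr1, Ifng, Tbx21, Pdcd1 and Cd27, and 5 of them, all but Cd8b1, were below the quartile in every array.

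Most receptor signalling genes stood clear of the olfactory line, as did most genes of the array, and most cytotoxic genes did not. By their means 9 of 13 signalling and 2 of 13 cytotoxic genes were above this line, against 66.58% of all genes. Of 13 signalling genes 9 exceeded the olfactory line in all 6 arrays, namely Cd3d, Cd3e, Cd3g, Cd4, Cd8a, Cd5, Zap70, Lat and Thy1. The count rests on the brightest probe set of each gene, and dimmer probe sets of Cd4, Cd8a and Zap70 had means under the line. Of 13 cytotoxic genes only Gzmb and Klrd1 did so, and of 6 regulatory genes only Icos. These counts describe probe sets, and levels of different genes are not compared with each other. Of the defining markers, the CD3 chains of T cells were thus above the olfactory line in every array. Ncr1, an activating receptor of NK cells and innate lymphoid cells, was below the lower quartile in every array. Of the other NK cell receptors, Klrd1 was above the olfactory line and Klrk1 between both lines in every array.

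**Figure D1:**
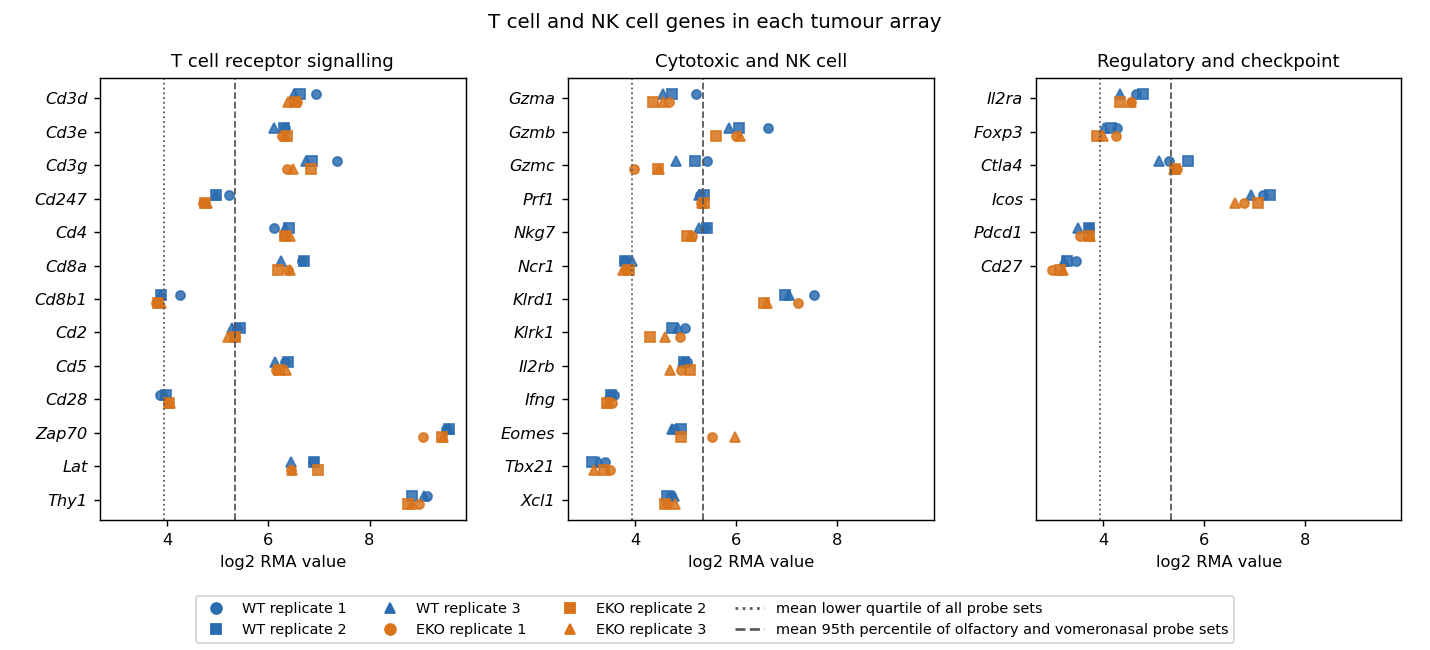
Log2 RMA values of the 32 measured genes in each array (x axis), in 3 panels by role, with WT in blue and EKO in orange and 1 marker shape per replicate. The dotted line is the mean lower quartile (3.93) and the dashed line the mean olfactory and vomeronasal 95th percentile (5.34); 6 genes have means left of the dotted line, and positions of different genes are not comparable.

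No gene of the list passed the test between EKO and WT tumours, but most had lower means in EKO tumours. By their means 24 of 32 were lower and 8 higher, with a median log2 difference (EKO minus WT) of -0.11, while 49.95% of all 18193 genes were lower with a median near 0. With limma and adjustment over all genes, 0 of the 32 had an adjusted p under 0.05, the smallest being 0.602, and 1 gene of the whole array did (Fabp5), or 0.0055%. That last count was 42 without EKO replicate 2 and 2 without WT replicate 2, with 0 genes of the list in either. At an unadjusted p under 0.05, 3 of the 32 were lower, Gzmc, Nkg7 and Cd247, against 3.7% of all genes, and 1 was higher, Eomes, against 3.44%. All 3 EKO values lay below all 3 WT values for 5 of the 32 genes, Gzmc, Nkg7, Cd247, Zap70 and Cd27, against 6.19% of all genes. The reverse held for 1, Cd28, against 5.78%. For 21 of the 32 genes the difference was smaller in size than the standard deviation of at least 1 group. The larger standard deviation decides this count, and the count was not made over all genes.

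Single arrays moved these counts. Without WT replicate 1 the number of genes at an unadjusted p under 0.05 was 2 (Gzmc and Nkg7) and the median difference was -0.06. Without WT replicate 3 the number was 7 (Gzmc, Nkg7, Cd247, Cd3g, Cd8a, Gzma and Icos, all lower) and the median was -0.20. The share of all genes at that level was not counted with an array left out, so these counts have no background beside them. WT replicate 1 had the highest of the 6 values for 13 of the 32 genes, and WT replicate 3 for 1. The number of genes lower by their means lay between 23 and 25 whichever array was left out.

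**Figure D2:**
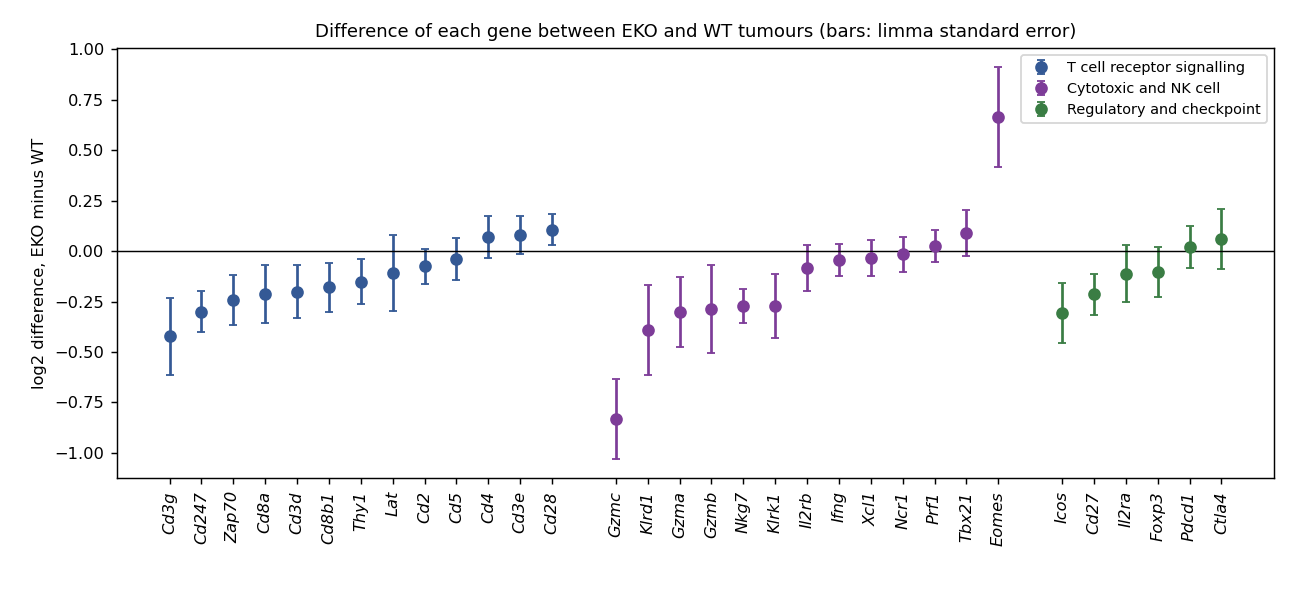
Log2 difference (EKO minus WT, y axis) of each of the 32 genes with its limma standard error as a bar, ordered by size within 3 roles by colour. Differences run from -0.83 for Gzmc to 0.66 for Eomes, and 24 of the points lie below 0.

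Among the chains of the T cell receptor complex, the adjacent genes Cd3g and Cd3d had lower EKO means while Cd3e did not. Cd3g, the gamma chain of CD3, read 7.36, 6.86 and 6.74 in the WT arrays, given here and below in the order of replicates 1, 2 and 3, and 6.37, 6.83 and 6.49 in the EKO arrays. WT replicate 1 was the highest, and EKO replicate 2 lay within the WT range (difference -0.42, SE 0.19, adjusted p = 0.704). Cd3d, the delta chain, read 6.94, 6.62 and 6.51 in WT and 6.57, 6.53 and 6.38 in EKO tumours, with overlap between the groups (difference -0.20). For Cd3e, the epsilon chain, the WT mean was 6.24 and the EKO mean 6.32, a difference of 0.08 (SE 0.0934).

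Cd247 encodes the zeta chain, which carries most of the signalling motifs of the receptor. Its values were 5.22, 4.96 and 4.96 in WT and 4.71, 4.74 and 4.79 in EKO replicates, so the groups did not overlap (difference -0.30, SE 0.101, adjusted p = 0.63). All 6 values were under the olfactory line of their array. The other 3 Cd247 probe sets had differences of -0.05, 0.05 and -0.14, and all 3 had means below the lower quartile. With a mean over the 4 probe sets the Cd247 difference was -0.11, and its unadjusted p was above 0.05. That was also so without WT replicate 1 (-0.21) and without EKO replicate 1 (-0.28).

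The coreceptors showed no common direction. Cd4 had means of 6.28 ± 0.159 in WT and 6.35 ± 0.0619 in EKO tumours (SD, n = 3 each). A second, dimmer Cd4 probe set had all EKO values below all WT values (difference -0.13), and the mean over both gave -0.03, so the sign for Cd4 depended on the probe set. Cd8a, the alpha chain of CD8, read 6.67, 6.71 and 6.25 in WT and 6.39, 6.18 and 6.425 in EKO replicates, with overlap. That probe set carries the x suffix, which Affymetrix gives where some probes also match other transcripts. The other 4 Cd8a probe sets had means between 3.46 and 4.86 and differences from -0.19 to 0.02, with all 4 means under the olfactory line. Cd8b1, the beta chain of CD8, was near the floor, at 4.25 in WT replicate 1 and between 3.77 and 3.87 in the other 5 arrays.

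Downstream of the receptor, Zap70, the kinase recruited to the phosphorylated CD3 chains, read 9.52, 9.57 and 9.57 in WT and 9.05, 9.43 and 9.45 in EKO replicates. The EKO values were all lower, with EKO replicate 1 the lowest (difference -0.24, SE 0.124, adjusted p = 0.734). The other 2 Zap70 probe sets had means of 5.52 and 4.40 and differences of 0.03 and 0.07, so the probe sets of this gene did not give 1 direction. Averaged over the 3 probe sets, the Zap70 difference was -0.05. Lat, the adaptor phosphorylated by Zap70, was high in WT replicates 1 and 2 and EKO replicate 2 (6.88, 6.90 and 6.98) and low in the other 3 arrays (6.44, 6.44 and 6.47). Its values did not separate by genotype (difference -0.11).

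The remaining surface proteins differed little. Cd2, an adhesion receptor, had a difference of -0.08, and Cd5, which dampens receptor signalling, one of -0.04. Cd28, the receptor for costimulation, read 3.86, 3.97 and 3.94 in WT and 4.01, 4.04 and 4.04 in EKO replicates, close to the lower quartile in all 6 arrays (difference 0.11, SE 0.078). Thy1, which fibroblasts also express, had a difference of -0.15 (SE 0.112). The median over the 13 signalling genes was -0.15, with 10 lower and 3 higher by their means. It was -0.07 without WT replicate 1, -0.24 without WT replicate 3 and -0.18 without Thy1 and Cd4.

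Of the cytotoxic genes, Gzmc had the largest difference of the whole list. Gzmc encodes granzyme C, a granule serine protease of activated killer cells. In WT tumours it read 5.43, 5.18 and 4.80 on the log2 scale, and in EKO tumours 3.98, 4.45 and 4.47. Every EKO value lay below every WT value, and the values spread widely within both groups (SD 0.317 in WT and 0.278 in EKO). The mean was 1.78-fold higher in WT tumours (difference -0.83, SE 0.197, adjusted p = 0.602). Only WT replicate 1 exceeded the olfactory line of its array, and EKO replicate 1 was close to the lower quartile. With any 1 array left out the difference lay between -1.002 and -0.67.

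The neighbours of Gzmc in the granzyme cluster on chromosome 14 gave the following values, and no difference between the genes was tested. Gzmb, the granzyme B gene at one end of the cluster, read 6.62, 6.06 and 5.85 in WT and 5.996, 5.59 and 6.07 in EKO replicates. WT replicate 1 was the highest and EKO replicate 2 the lowest, while the other 4 values overlapped (difference -0.29, SE 0.219, adjusted p = 0.818). Gzmd, Gzme, Gzmf, Gzmg and Gzmn had means under the lower quartile, where signal near the floor limits what can be seen (differences between -0.12 and 0.16). Gzma, granzyme A, which lies on chromosome 13, read 5.19, 4.73 and 4.55 in WT and 4.66, 4.36 and 4.55 in EKO replicates, below the olfactory line throughout (difference -0.30). Prf1, which encodes the pore-forming perforin, had means of 5.30 in WT and 5.33 in EKO tumours, and its second probe set had a difference of -0.03.

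Nkg7, a granule protein of cytotoxic lymphocytes, read 5.37, 5.42 and 5.27 in WT and 5.13, 5.02 and 5.09 in EKO replicates. The groups did not overlap, and the spread within each was small (difference -0.27, SE 0.0849, adjusted p = 0.625). The size was between -0.32 and -0.24 under every alternative in which the gene was tested. Without WT replicate 2 its unadjusted p was above 0.05. Its values lay close to the olfactory line.

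NK cell receptors gave the following values. Klrd1, the CD94 chain that pairs with NKG2 proteins, read 7.53, 6.95 and 7.05 in WT and 7.21, 6.54 and 6.605 in EKO replicates. EKO replicate 1 lay inside the WT range and the other EKO values below it (difference -0.39, SE 0.222, adjusted p = 0.76). Klrk1, which encodes the activating receptor NKG2D, read 4.99, 4.73 and 4.84 in WT and 4.87, 4.28 and 4.58 in EKO replicates, again with EKO replicate 1 inside the WT range (difference -0.27). Both genes are neighbours on chromosome 6. Ncr1 had a difference of -0.02 at the floor. Il2rb, the beta chain of the receptors for interleukins 2 and 15, had means of 4.97 and 4.89.

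Eomes had the largest positive difference of the list. It encodes a T-box transcription factor of cytotoxic lymphocytes that is also used in embryonic tissues. WT tumours had 4.77, 4.91 and 4.72 and EKO tumours 5.52, 4.90 and 5.97. EKO replicates 1 and 3 were above all WT values, while EKO replicate 2 lay inside the range of the WT values (difference 0.66, SE 0.246, adjusted p = 0.659). The second Eomes probe set also had EKO replicates 1 and 3 highest and EKO replicate 2 within the WT range, with 3.55, 3.85 and 3.58 in WT and 4.33, 3.61 and 4.69 in EKO tumours. Without EKO replicate 2 the difference was 0.94 (adjusted p = 0.128), and without EKO replicate 3 it was 0.41. Its unadjusted p was above 0.05 when WT replicate 1, WT replicate 3, EKO replicate 1 or EKO replicate 3 was left out. Tbx21, the related factor T-bet, had a difference of 0.09 with all values under the lower quartile.

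The cytokine genes of the list lay below the olfactory line in every array, and Ifng also below the lower quartile. Ifng, interferon gamma, read 3.44 to 3.58 in all 6 arrays, and Xcl1, a chemokine of NK cells and CD8 T cells that attracts dendritic cells, lay between 4.5965 and 4.78. Over the 13 cytotoxic genes the median difference was -0.08, with 10 lower and 3 higher by their means. It was -0.27 over the 10 genes whose mean exceeded the lower quartile. EKO replicate 2 had the lowest of the 6 values for 7 of the 13 genes and WT replicate 1 the highest for 6.

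Of the regulatory genes, Icos, a costimulatory receptor of activated and regulatory T cells, stood clear of the floor. It read 7.16, 7.31 and 6.92 in WT and 6.79, 7.07 and 6.62 in EKO replicates, with EKO replicate 2 inside the WT range (difference -0.31, SE 0.149, adjusted p = 0.717). The other 2 Icos probe sets had differences of -0.20 and -0.14. Foxp3, the lineage factor of regulatory T cells, read 4.28, 4.15 and 4.02 in WT and 4.26, 3.89 and 3.99 in EKO replicates, under the olfactory line throughout (difference -0.10). Il2ra, the high-affinity chain of the interleukin 2 receptor, had a difference of -0.11 with overlap, while its second probe set read 4.57, 4.56 and 4.41 in WT and 4.21, 4.34 and 4.06 in EKO tumours, without overlap (difference -0.31).

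The inhibitory receptors Ctla4 and Pdcd1 had no settled direction. Ctla4, which competes with Cd28 for its ligands, ranged from 5.10 to 5.69 in WT tumours, around the EKO values of 5.40 to 5.46 (difference 0.06). Its difference was -0.07 without WT replicate 3. Pdcd1, which encodes PD-1, was under the lower quartile in all arrays (difference 0.02, and -0.05 without WT replicate 3). Cd27, a costimulatory receptor of the tumour necrosis factor receptor family, read 3.46, 3.29 and 3.23 in WT and 3.00, 3.14 and 3.21 in EKO replicates, without overlap but at the floor (difference -0.21, adjusted p = 0.716). The 6 regulatory genes had a median of -0.11, with 4 lower and 2 higher by their means. The median was -0.06 without WT replicate 1, -0.06 without WT replicate 2, -0.21 without WT replicate 3 and -0.03 without EKO replicate 2.

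**Figure D3:**
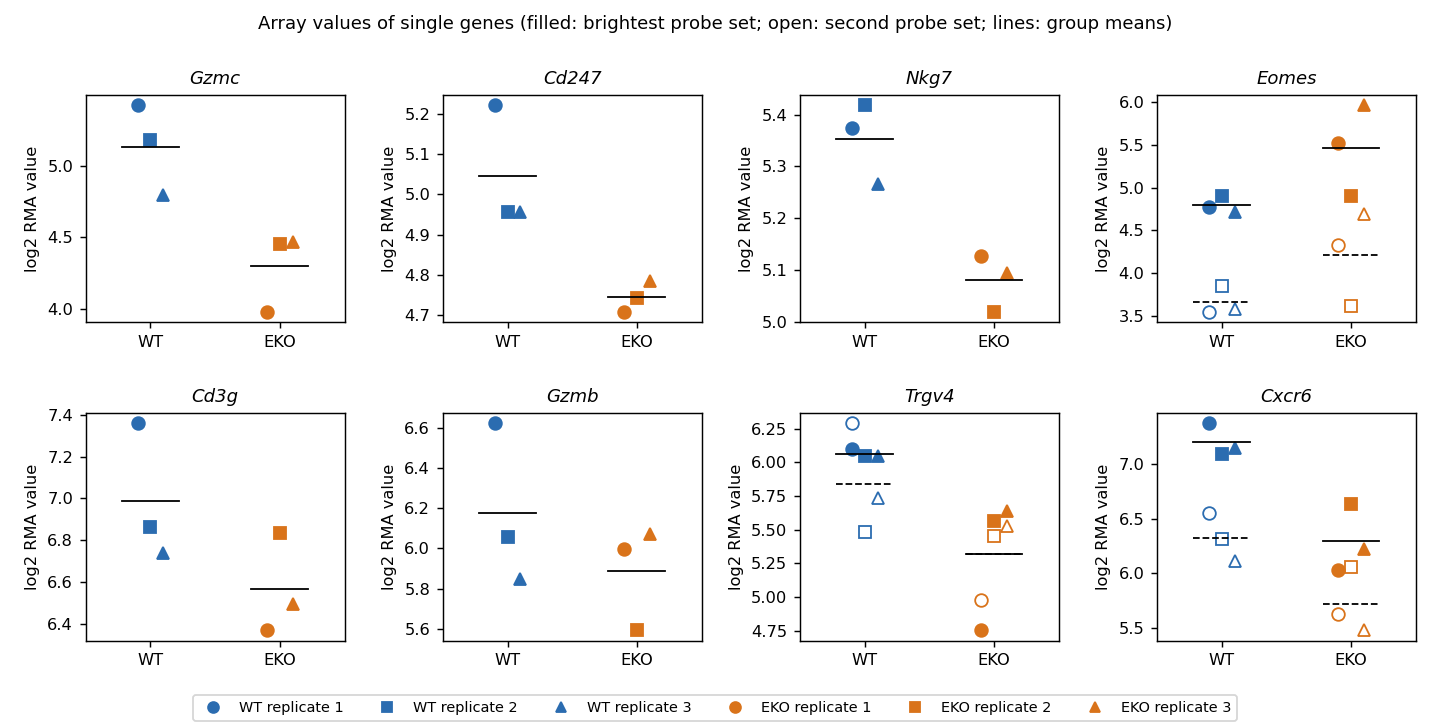
Log2 RMA values (y axis) by group for 6 genes of the list and, beside them, Trgv4 and Cxcr6, with 1 point per array, filled for the brightest probe set, open for the second, and lines at the group means; the y axes differ and do not start at 0. Gzmc, Cd247 and Nkg7 show no overlap, while in both Eomes probe sets EKO replicate 2 lies among the WT values. Only 1 of the 4 Cd247 probe sets is drawn, and in the dimmer ones the groups overlapped.

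Each array was also scored by role, as the mean over the genes of the distance from their own mean over the 6 arrays. The signalling score was 0.16, 0.08 and -0.05 for WT tumours and -0.11, -0.02 and -0.06 for EKO tumours. WT replicates 1 and 2 were the highest, and WT replicate 3 lay among the EKO arrays. The cytotoxic score was 0.20, 0.03 and -0.02 in WT and 0.0022, -0.17 and -0.04 in EKO tumours, with WT replicate 1 highest and EKO replicate 2 lowest. The regulatory score was 0.12, 0.18 and -0.13 in WT and -0.05, -0.05 and -0.06 in EKO tumours, where WT replicate 3 was the lowest of all 6. In each of the 3 roles the groups overlapped.

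Markers of other leukocytes were measured beside these scores, and their order over the arrays was the same only in part. From highest to lowest, the cytotoxic and pan-leukocyte scores ranked the arrays alike, except that EKO replicates 2 and 3 changed places. WT replicate 1 also had the highest macrophage and dendritic cell score (0.29), and EKO replicate 2 the lowest (-0.39). EKO replicate 1 had the lowest signalling score but the highest pan-leukocyte score of the EKO arrays (0.08), and WT replicate 3 had the lowest WT score in all 3 roles but a macrophage and dendritic cell score of 0.16, above that of WT replicate 2 (0.02). Of 9 measured pan-leukocyte markers 7 had lower EKO means, with scores of 0.03 to 0.19 in WT and -0.22 to 0.08 in EKO arrays. Their mean log2 values were 7.46 to 7.61 and 7.20 to 7.50. At an unadjusted p under 0.05 (limma), 3 of the 9 were lower and 0 higher, against 3.7% and 3.44% of all genes, with a median difference of -0.17. Ptprc, the common leukocyte antigen CD45, had means of 8.75 and 8.67 (difference -0.08). Itgb2, the beta chain of leukocyte integrins, had a difference of -0.48 without overlap. All EKO values lay below all WT values for 2 of the 9 markers, against 6.19% of all genes. Of 17 macrophage and dendritic cell markers 16 had lower EKO means, with scores of 0.02 to 0.29 in WT and -0.39 to 0.0036 in EKO arrays. Their mean log2 values were 6.94 to 7.21 and 6.53 to 6.92. At the same level 5 of the 17 were lower and 0 higher, with a median difference of -0.18. The smallest p were those of Mrc1 (-1.04), C1qc (-0.65), C1qa (-0.59) and C1qb (-0.67). These 4 had all EKO values below all WT values, and 0 of the 17 had an adjusted p under 0.05. The 11 B and plasma cell markers had 4 lower and 7 higher means, with 10 of 11 under the olfactory line. Skeletal muscle markers had their highest score, 2.22, in WT replicate 1, the array with the highest signalling and cytotoxic scores. No marker of these lists reads 0 on the RMA scale. The part of these cell types in the differences of T cell and NK cell genes was not tested.

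**Figure D4:**
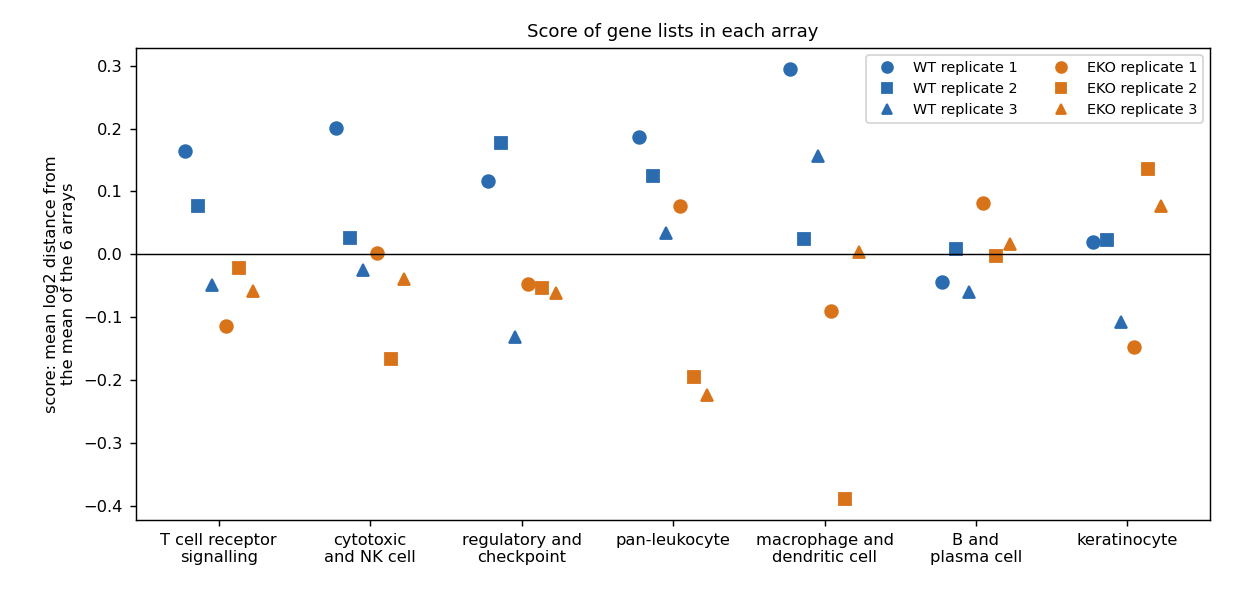
Score of each array (y axis, mean log2 distance from the mean of the 6 arrays) for 3 roles of T cell and NK cell genes and for 4 lists of other cell types, with 1 point per array. WT replicate 1 has the highest signalling (0.16) and cytotoxic (0.20) scores, and the WT and EKO points overlap in each of the 3 roles.

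Other genes of these pathways were followed in 5 lists, and 0 of their members passed the test over all genes. Of 27 further genes of receptor signalling, 3 were lower and 3 higher at an unadjusted p under 0.05, against 3.7% and 3.44% of all genes, with a median difference of -0.065. The smallest p were those of Nfatc1, a transcription factor activated by calcium (-0.49), Themis, a T cell adaptor (0.28), Prkcq, a protein kinase C of T cells (-0.28), and Txk, a kinase of the Tec family (0.22). Of 30 further genes of cytotoxic lymphocytes 3 were lower and 1 higher at that level, against the same 3.7% and 3.44% of all genes, with a median of -0.04. The lower ones were Klrc1, an NKG2 chain that pairs with CD94 (-0.38), Cst7, an inhibitor of granule proteases (-0.36), and Crtam (-0.20). The higher one was the chemokine gene Ccl3, which read 4.51, 4.16 and 3.69 in WT and 5.98, 4.27 and 7.05 in EKO replicates. EKO replicates 1 and 3 were high, the same arrays as for Eomes, and EKO replicate 2 was among the WT values. Cd14 was also highest in EKO replicates 1 and 3 (7.35 and 8.31). It was the 1 of 17 macrophage and dendritic cell markers with a higher EKO mean, and 16 were lower. A shared source of these values was not tested.

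Of 13 genes of exhaustion and costimulation 9 had lower EKO means, and 2 were lower at an unadjusted p under 0.05, against 3.7% of all genes. These were Tnfrsf4, which encodes the costimulatory receptor OX40 (8.20, 8.20 and 8.16 in WT and 7.79, 7.94 and 7.81 in EKO replicates), and Tnfrsf18, which encodes GITR (difference -0.35). Both are high on regulatory T cells, and for both all EKO values lay below all WT values, as for 6.19% of all genes. Neither passed over all genes (adjusted p = 0.616 and 0.694). Havcr2, the checkpoint receptor TIM-3, had a difference of -0.19 and Vsir one of -0.34.

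Among 11 measured genes of gamma-delta and skin-resident T cells 9 had lower EKO means and 2 were lower and 1 higher at an unadjusted p under 0.05, against 3.7% and 3.44% of all genes. Cxcr6, a chemokine receptor of tissue-resident T cells, read 7.37, 7.09 and 7.15 in WT and 6.03, 6.63 and 6.22 in EKO replicates (difference -0.91, SE 0.166, adjusted p = 0.546). Itgae, the integrin chain that binds E-cadherin on keratinocytes, had a difference of -0.48, and its second probe set one of -0.48. Both probe sets of Cxcr6 and both of Itgae separated the groups. All EKO values lay below all WT values for 3 of the 11 genes, Cxcr6, Itgae and Cd160 (difference -0.06), against 6.19% of all genes. Sox13, a factor of gamma-delta T cells that other tissues also express, was higher (0.34), and Il17a had a difference of -0.25.

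Receptor gene segments were added after the annotation had been seen, as the 10 measured genes named for variable segments of the alpha, beta or gamma chain or for the alpha locus. Of these Trgv4, a gamma chain segment, read 6.10, 6.05 and 6.05 in WT and 4.75, 5.56 and 5.63 in EKO replicates (difference -0.75, adjusted p = 0.621). EKO replicate 1 was the lowest, and the groups did not overlap. Its second probe set, with the x suffix, had a difference of -0.52 with overlap, and the third was at the floor. Trgv1 had a difference of -0.32 near the floor, and the 10 segments had 5 higher and 5 lower means. All EKO values lay below all WT values for 2 of the 10, Trgv4 and Trgv1, against 6.19% of all genes.

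Ligands and cytokines that act on these cells were lower by their means for 22 of 25 measured genes, with 5 at an unadjusted p under 0.05, all lower, against 3.7% of all genes, and a median of -0.21. Cxcl16, the ligand of Cxcr6, read 9.35, 9.36 and 8.95 in WT and 8.41, 8.67 and 8.57 in EKO replicates (difference -0.67, adjusted p = 0.546). Ccl17, a chemokine that draws T cells into skin, had a difference of -0.80, Cd48, the ligand of Cd2 in the mouse, one of -0.54, and Il7, a survival factor of lymphocytes, one of -0.27. All 4 had EKO values below all WT values, as had 5 of the 25 genes and 6.19% of all genes. Other ligands were picked for their receptors after the values had been seen. H60c, a keratinocyte ligand of NKG2D, had a difference of -0.06, Icosl, the ligand of Icos, -0.13, and Cd274, which encodes PD-L1, -0.36. Cd80 and Cd86, the ligands of Cd28 and Ctla4, had differences of -0.03 and -0.07. None of these 5 had an unadjusted p under 0.05.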

How the data were processed

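Arrays were grouped by genotype from their titles, in which replicates are named biological. The values the authors deposited are on the log2 scale. The submitters' processing notes name RMA and Partek 6.6, and RMA gives all arrays 1 distribution of probe intensities and narrows differences near the floor. The probe set values still differed slightly between arrays, with lower quartiles from 3.90 in EKO replicate 1 to 3.96 in EKO replicate 3. Of 45101 probe sets 64 controls were left out, 34945 carried 1 symbol, 932 several and 9160 none, and only the first were used. The genotypes were compared with limma 3.58.1 under R 4.3.3, with a two-sided moderated test over 18193 genes with Benjamini-Hochberg adjustment and a threshold of 0.05. The procedure was tested on simulated data.

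The T cell and NK cell genes and all other lists were chosen with earlier results of these data known. All genes of the list are named. Of the other lists up to 4 genes with the smallest p were named, with defining markers. No scan date was at hand, and batches were not tested. With 3 arrays per group, the number of arrays limits the precision. The alternatives were a replicate block, other scalings, filters, variance models and probe set rules, other floors, and each array left out.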

Additional observations from a re-analysis of the deposited data

How the results depend on the processing

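No gene of the list passed over all genes under any of the 13 alternatives tried. Of the 32 genes, 20 stayed lower and 4 higher by their means under every alternative in which they were tested, and 8 changed sign (Cd4, Cd5, Prf1, Ncr1, Il2rb, Xcl1, Ctla4 and Pdcd1). With only genes in the upper 50% of means, 6 genes of the list were left, 0 had an unadjusted p under 0.05, and the median difference was -0.27, with -0.39 for the 1 cytotoxic gene and -0.31 for the 1 regulatory gene. Over the cytotoxic genes with a mean above the lower quartile the median was -0.27. With 1 array left out, the genes of the list at an unadjusted p under 0.05 numbered 2 to 7, the median difference over the list ran from -0.202 to -0.0607, and that of the signalling genes from -0.235 to -0.0674. The number of genes past the threshold over the whole array ran from 1 to 42, with 42 without EKO replicate 2 and 2 without WT replicate 2. Counted against the olfactory and vomeronasal line, 19 genes were near the floor, and against the median of all probe sets 20, in place of 6. The deviations of same-numbered arrays had r of -0.07, -0.09 and -0.34, and those of differently numbered arrays ran from -0.19 to 0.26. With 3 arrays per group such overlapping values cannot tell whether the numbers pair the mice. With a replicate block 6 genes of the list had an unadjusted p under 0.05 in place of 4, Klrd1 and Icos being added, and 0 passed the threshold. The cause of these changes was not tested, and the share of all genes at that unadjusted level was not counted under the alternatives. Signal near the floor limits what can be seen for the 6 lowest genes.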
